A study of Mus musculus with 8 samples.

Results

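Matricellular proteins were compared between 2 mouse cell lines through 10 genes: the thrombospondins Thbs1 and Thbs2, tenascin C (Tnc), Sparc, periostin (Postn), osteopontin (Spp1), fibronectin (Fn1) and 3 genes of the CCN family. The CCN genes are Ccn2 (older symbol Ctgf), Ccn1 (Cyr61) and Ccn3 (Nov). A probe set, the group of short probes that reports 1 transcript on an Affymetrix array, was taken where the platform's gene annotation named exactly 1 of these genes. That gave 20 probe sets of 45037, for 9 of the 10 genes among 18193 named genes, and all 20 passed the filter on dim signals. Spp1 was not analysed here. Total RNA of SThdh111/111 and of SThdh7/7 was hybridised to 8 arrays, 4 for each line. Lines of these names are striatal cells from mouse embryos, conditionally immortalised with a temperature-sensitive viral T antigen, that carry knock-in alleles of the Huntington's disease gene Htt. Both alleles of SThdh111/111 encode a long polyglutamine tract and both alleles of SThdh7/7 a short one, as the numbers in the names state. Each genotype was represented by a single line, so that genotype and any other difference between the lines cannot be told apart. The labels do not say that the samples were separate cultures, so p-values rest on the spread between these samples alone, which may be technical.

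Matricellular proteins are secreted into the extracellular matrix, where most of them act less as scaffold than as signals: they bind integrins, proteoglycans and growth factors and change how cells adhere, migrate and respond to TGF-beta. Fibronectin is both a structural fibre and a ligand of integrins. In the nervous system thrombospondins and Sparc are secreted by glia and act on synapse formation, and tenascin C marks neural stem cell niches. Ccn1 and Ccn2 are standard target genes of the co-activators YAP and TAZ, which act through TEAD transcription factors when cells spread on a stiff substrate.

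Values are log2 of the deposited intensity, and a difference is SThdh111/111 minus SThdh7/7 on that scale. The floor, an upper level of the signal from bacterial control probe sets, was at a log2 of 7.02. Median intensities were 136.2 to 147.0 on the SThdh111/111 arrays and 137.7 to 174.0 on the SThdh7/7 arrays, of which samples 1 and 2 stood highest at 173.9 and 174.0. The bacterial controls reached 72.0 to 77.5 on the SThdh111/111 arrays and 98.7 to 130.0 on the SThdh7/7 arrays. The floor is the highest of these levels, so an SThdh111/111 signal below it can still exceed the controls of its own array. Htt itself differed by -0.42, which did not pass the threshold (adjusted p = 0.084). Without the kinds of probe set that can match more than 1 transcript, Htt was read at another, which differed by -1.09 (adjusted p = 0.024). Taking all kept probe sets, the median difference was -0.12, and with median-centred arrays it was 0.04. Of the striatal projection neuron markers with a probe set, 2 of 7 were below the floor on every array, Ppp1r1b and Drd1. Another 2 of the 7 were higher in SThdh111/111, Penk and Foxp1, against 13.1% of all named genes.

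All 9 measured genes differed between the lines at their brightest probe set, 6 higher and 3 lower in SThdh111/111 (limma, adjusted p under 0.05). Ccn3, Postn, Thbs2, Fn1, Thbs1 and Sparc were higher, and Ccn2, Tnc and Ccn1 were lower. The genes were chosen with earlier results of these data known, so the shares that follow describe the set and do not test it. For comparison, the test called 29.0% of 17389 named genes, 13.1% higher and 15.9% lower. Brighter genes were called more often: among the 7156 named genes at least as bright as the dimmest member, 49.3% were called, 23.2% higher and 26.0% lower. The arrays of the lines did not overlap for any of the 9 genes, which held for 31.6% of named genes of any brightness. That share was not worked out for genes as bright as the members. The median difference of the 9 was 1.03, against -0.09 over all named genes. In size they spread widely. Ccn3 moved more than 99.5% of named genes, Postn more than 98.7% and Thbs2 more than 97.7%, whereas Sparc moved more than 32.1%. Of the 20 probe sets, 11 were called higher and 4 lower, against 9.87% and 12.6% of all kept probe sets (22.4% in all). The arrays of the lines did not overlap for 15 of the 20, against 25.1% of kept probe sets of any brightness. The 6 to 3 split held without SThdh7/7 samples 1 and 2. With the arrays centred on their medians it was 5 to 2, with the calls of Sparc and Ccn1 lost. The same centring put 39.5% of the called probe sets lower in SThdh111/111, against 56.0% without it.

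**Figure D1:**
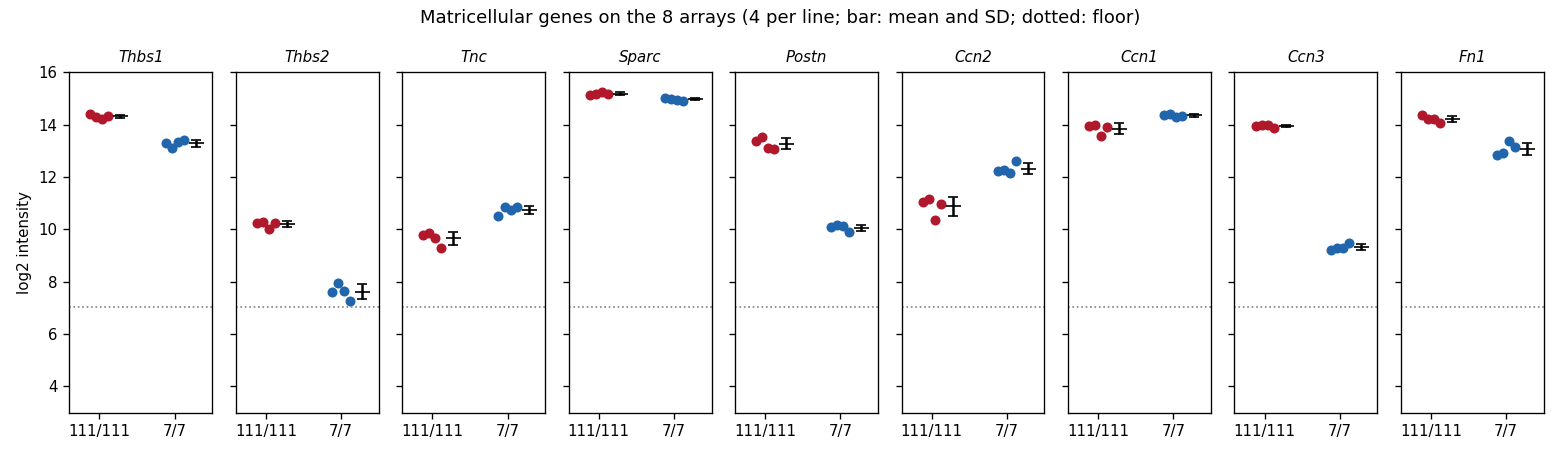
Log2 intensity of the brightest probe set of each matricellular gene (y axis) on 4 SThdh111/111 arrays (red, left) and 4 SThdh7/7 arrays (blue, right), with the mean and SD beside the points and the floor of 7.02 as a dotted line. Ccn3, Postn and Thbs2 stand far apart between the lines, with SThdh111/111 above, while Ccn2 and Tnc stand apart with SThdh111/111 below.

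The CCN genes moved in opposite directions. Ccn3, whose protein restrains proliferation in several cell types and opposes Ccn2 in fibrosis models, showed the widest difference of the 9. Its brightest probe set (1426852_x_at) measured 13.95, 13.97, 14.00 and 13.88 on SThdh111/111 samples 1 to 4, against 9.22, 9.29, 9.30 and 9.47 on SThdh7/7 samples 1 to 4. Every SThdh111/111 array lay more than 4 log2 units above every SThdh7/7 array. The difference was 4.63 ± 0.07 (SE; adjusted p = 3.7e-14), a 24.8-fold higher intensity. The second Ccn3 probe set gave 4.71 ± 0.17 (SE; adjusted p = 1.4e-10), with 13.60 ± 0.09 in SThdh111/111 and 8.89 ± 0.45 in SThdh7/7 (SD, n = 4). Both Ccn3 probe sets are of kinds that can match more than 1 transcript, and no other kind was named for the gene.

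Ccn2, which encodes connective tissue growth factor, a mediator of matrix production downstream of TGF-beta, fell. It measured 11.05, 11.15, 10.35 and 10.97 on SThdh111/111 samples 1 to 4, against 12.24, 12.26, 12.16 and 12.61 on SThdh7/7 samples 1 to 4. The lines did not overlap, and SThdh111/111 sample 3 was the lowest array. The single Ccn2 probe set (1416953_at) fell by 1.44 log2 units (SE 0.15; adjusted p = 8.1e-06), an intensity 2.71-fold higher in SThdh7/7. Without SThdh111/111 sample 3 the difference was -1.26.

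Ccn1, an integrin ligand made by adherent cells as an immediate early gene, fell as well. Its brightest probe set (1416039_x_at) measured 13.95, 13.99, 13.56 and 13.92 on SThdh111/111 samples 1 to 4, against 14.37, 14.43, 14.28 and 14.34 on SThdh7/7 samples 1 to 4. As with Ccn2, sample 3 was the lowest SThdh111/111 array. The difference was -0.50 ± 0.09 (SE; adjusted p = 7.7e-04), and the second probe set gave -0.63 ± 0.09 (SE; adjusted p = 9.5e-05). The remaining pair of Ccn1 probe sets, both dimmer, differed by -0.38 and -0.20 and did not pass the test (adjusted p = 0.15 and 0.46). The call was lost after centring of the arrays (difference -0.35, adjusted p = 0.16). It was also lost when kinds of probe set that can match more than 1 transcript were dropped. That removed the probe set at -0.63 too and left the one at -0.20.

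The other 3 genes of the family also differed in direction. Ccn4 (older symbol Wisp1), a target of Wnt signalling, fell by 3.21 log2 units, at 9.18 ± 0.20 in SThdh111/111 and 12.38 ± 0.04 in SThdh7/7 (SD, n = 4; adjusted p = 2.1e-11). Ccn5 (Wisp2), whose protein lacks the carboxy-terminal domain of the other members, rose by 2.93 ± 0.18 (SE; adjusted p = 4.0e-08). Ccn6 (Wisp3) was above the floor on no SThdh111/111 array and on 1 SThdh7/7 array, and was not called (difference -0.18, adjusted p = 0.76). Its intensities on the SThdh111/111 arrays, 90.2 to 127.7, all exceeded the controls of those arrays (72.0 to 77.5). On the SThdh7/7 arrays they were 102.8 to 138.3, with controls at 98.7 to 130.0. Of the 6 CCN genes, 2 thus rose and 3 fell, with the last near the floor. Of all named genes 13.1% were called higher and 15.9% lower, and of those as bright as the members 23.2% and 26.0%.

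**Figure D2:**
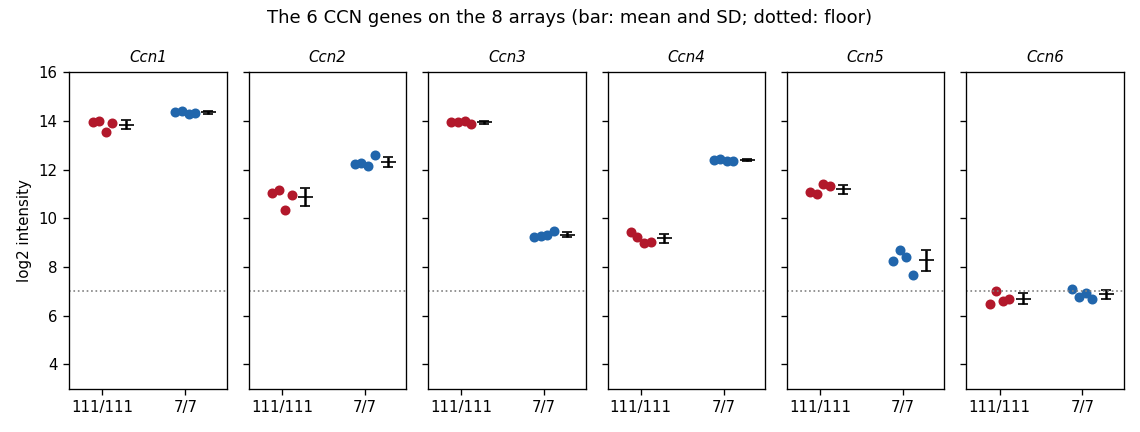
Log2 intensity (y axis) of the 6 CCN genes on 4 SThdh111/111 arrays (red, left) and 4 SThdh7/7 arrays (blue, right), with mean and SD and the floor of 7.02 dotted. Ccn3 and Ccn5 are higher in SThdh111/111, Ccn1, Ccn2 and Ccn4 are lower, and Ccn6 lies around the floor.

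Periostin, a fasciclin-domain protein of periosteum, tendon and healing tissue that binds integrins and collagen, rose strongly. Postn (1423606_at) measured 13.37, 13.53, 13.10 and 13.08 on SThdh111/111 samples 1 to 4, against 10.07, 10.16, 10.11 and 9.88 on SThdh7/7 samples 1 to 4. The lowest SThdh111/111 array lay well above the highest SThdh7/7 array. The difference was 3.21 ± 0.10 (SE; adjusted p = 4.6e-11), or 9.28-fold. Its paralogue Tgfbi, the other secreted fasciclin protein, rose as well. Tgfbi was at 12.81 ± 0.12 in SThdh111/111 (SD, n = 4) and passed the floor on a single SThdh7/7 array. Counting the other 3 at the floor, the rise was 5.75 log2 units or more (adjusted p = 6.9e-09). All 3 other Tgfbi probe sets were called higher too.

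Both thrombospondins rose. Thbs1, a trimeric glycoprotein that activates latent TGF-beta and binds CD36 and CD47, measured 14.40, 14.30, 14.23 and 14.33 on SThdh111/111 samples 1 to 4, against 13.31, 13.11, 13.34 and 13.40 on SThdh7/7 samples 1 to 4. The lines did not overlap, and the difference at this probe set (1460302_at) was 1.03 ± 0.07 (SE; adjusted p = 1.1e-07), or 2.04-fold. The second Thbs1 probe set gave 1.12 ± 0.07 (SE; adjusted p = 2.3e-08).

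Thbs2, a close relative that lacks the sequence for activating TGF-beta and inhibits angiogenesis, rose too. Its brightest probe set (1422571_at) measured 10.26, 10.30, 10.03 and 10.23 on SThdh111/111 samples 1 to 4, against 7.62, 7.95, 7.66 and 7.26 on SThdh7/7 samples 1 to 4. The SThdh7/7 arrays were close to the floor. The difference was 2.58 ± 0.15 (SE; adjusted p = 2.3e-08), or 5.98-fold, with a 95% interval of 2.25 to 2.90. The other Thbs2 probe sets were called higher as well. The first rose by 1.64 ± 0.26 (SE; adjusted p = 3.5e-04). The second was below the floor on every SThdh7/7 array and at least 4.24-fold higher in SThdh111/111, where samples 1 and 2 (8.47 and 8.50) lay under samples 3 and 4 (9.67 and 9.79). Of the other members of the family, Thbs3 rose by 0.34 ± 0.11 (SE; adjusted p = 0.037), a call absent from 7 of the 8 fits that each dropped a sample, without SThdh7/7 samples 1 and 2 (adjusted p = 0.13), without an intensity trend (adjusted p = 0.056) and with the replicate block (adjusted p = 0.084). Comp was not called (difference -0.22, adjusted p = 0.62), and Thbs4 was below the floor on all 8 arrays.

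Fibronectin, the dimeric glycoprotein that cells assemble into fibres through integrin alpha 5 beta 1, rose. Fn1 (1426642_at) measured 14.36, 14.22, 14.22 and 14.08 on SThdh111/111 samples 1 to 4, against 12.84, 12.93, 13.38 and 13.15 on SThdh7/7 samples 1 to 4. The lines did not overlap, and SThdh7/7 samples 1 and 2 were the lowest. The difference was 1.15 ± 0.10 (SE; adjusted p = 1.9e-06), or 2.21-fold, and 0.96 without those samples. The second, dimmer Fn1 probe set did not pass the test, at 7.84 ± 0.31 in SThdh111/111 and 7.66 ± 0.29 in SThdh7/7 (SD, n = 4; adjusted p = 0.66). The mean of both probe sets differed by 0.67 (adjusted p = 0.0016).

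Sparc, a collagen-binding glycoprotein also called osteonectin, showed the smallest difference of the 9. It measured 15.13, 15.19, 15.25 and 15.16 on SThdh111/111 samples 1 to 4, against 15.00, 14.99, 14.95 and 14.92 on SThdh7/7 samples 1 to 4. The lines did not overlap, although the gap between the nearest arrays was small. The brightest probe set (1416589_at) rose by 0.22 ± 0.06 (SE; adjusted p = 0.011) and the second by 0.39 ± 0.06 (SE; adjusted p = 2.6e-04). The third, far dimmer, differed by -0.19 (adjusted p = 0.66). The call was lost after quantile normalization (difference 0.04, adjusted p = 0.62), after centring (0.37, adjusted p = 0.12), without an intensity trend (adjusted p = 0.15) and with the mean of the probe sets (0.14, adjusted p = 0.27).

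Relatives of Sparc moved both ways. Sparcl1, also called hevin, was at 9.13 ± 0.19 in SThdh111/111 (SD, n = 4) and below the floor on every SThdh7/7 array, at least 4.32-fold higher (adjusted p = 1.8e-06). Smoc2, which has the same calcium-binding module, passed the floor on a single SThdh7/7 array, and its rise was 3.41 log2 units or more with the other 3 set to the floor (adjusted p = 4.6e-07). Fstl1, a follistatin-like secreted protein, fell by 0.96 log2 units, with 12.47 ± 0.25 in SThdh111/111 and 13.43 ± 0.14 in SThdh7/7 (SD, n = 4; adjusted p = 1.9e-05).

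Tenascin C, a hexameric protein of migrating and regenerating tissue that weakens adhesion to fibronectin, fell. Tnc measured 9.79, 9.85, 9.68 and 9.30 on SThdh111/111 samples 1 to 4, against 10.53, 10.86, 10.74 and 10.86 on SThdh7/7 samples 1 to 4. The lines did not overlap, and SThdh111/111 sample 4 was the lowest array. The difference at this probe set (1416342_at) was -1.09 ± 0.12 (SE; adjusted p = 1.5e-05), an intensity 2.13-fold higher in SThdh7/7. The second Tnc probe set was below the floor on all 8 arrays (adjusted p = 0.55), and the mean of both lost the call (adjusted p = 0.21). The other tenascin genes were dim, and Tnr was below the floor on all 8 arrays. Tnn and Tnxb were above it on 1 and 2 SThdh7/7 arrays and on no SThdh111/111 array. Tnxb had intensities of 108.2 and 96.8 on SThdh111/111 samples 2 and 4, above the controls of those arrays (75.0 and 75.8).

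**Figure D3:**
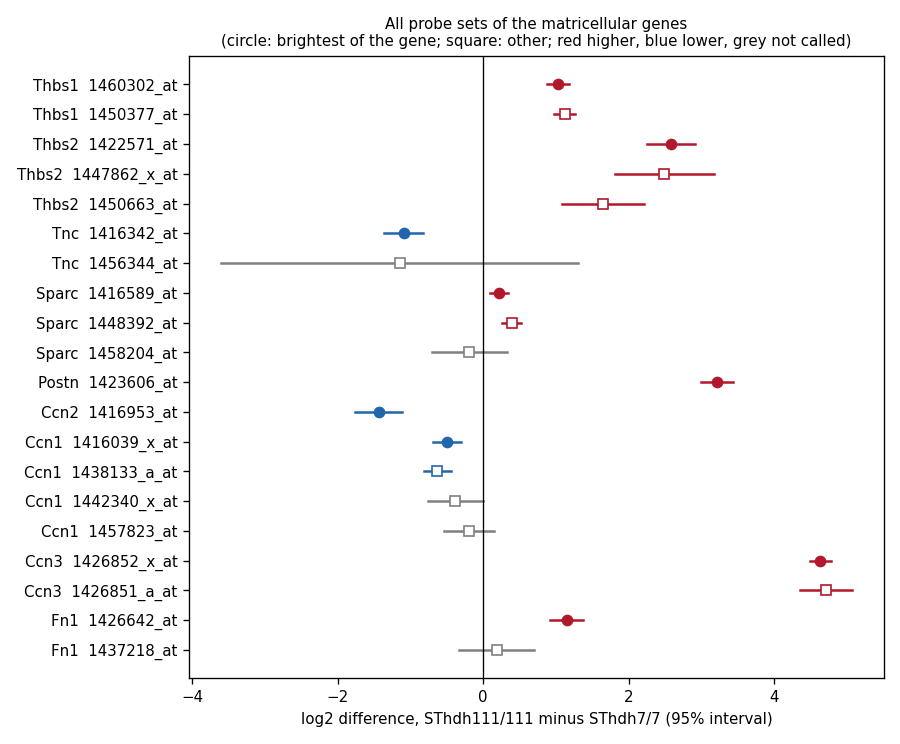
Difference in log2 intensity (x axis, SThdh111/111 minus SThdh7/7, with 95% intervals) for all 20 probe sets of the 9 genes. Red was called higher, blue lower and grey not called; 15 of the 20 were called, and each of the 5 that were not was a dimmer probe set of a gene with a called one.

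Of the measured genes, Thbs2, Tnc, Sparc, Postn and Ccn1 had upstream sequence in the RefSeq promoter table (GRCm38.p6). It is shown for Ccn1 and Tnc, which fell, and for Thbs2, which rose, to set a known YAP and TAZ target beside matrix genes of either direction. Each line holds the 250 bases before the annotated start, 5′ to 3′ on the gene's strand. Capitals mark the TEAD core GGAATG on either strand (read as CATTCC on the opposite one) and the TATA box letters TATAAA on the gene's strand.
Ccn1, chr3:145649986-145650235, minus strand: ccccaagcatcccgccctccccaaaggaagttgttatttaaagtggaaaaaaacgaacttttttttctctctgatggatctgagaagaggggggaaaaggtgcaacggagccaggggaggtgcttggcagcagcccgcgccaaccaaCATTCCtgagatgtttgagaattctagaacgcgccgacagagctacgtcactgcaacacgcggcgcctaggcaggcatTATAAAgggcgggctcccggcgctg
Tnc, chr4:64047016-64047265, minus strand: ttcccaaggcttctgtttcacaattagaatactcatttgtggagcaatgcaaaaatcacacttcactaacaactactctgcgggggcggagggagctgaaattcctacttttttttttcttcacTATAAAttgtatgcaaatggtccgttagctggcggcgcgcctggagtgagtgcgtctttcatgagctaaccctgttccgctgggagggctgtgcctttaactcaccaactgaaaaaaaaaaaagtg
Thbs2, chr17:14694263-14694512, minus strand: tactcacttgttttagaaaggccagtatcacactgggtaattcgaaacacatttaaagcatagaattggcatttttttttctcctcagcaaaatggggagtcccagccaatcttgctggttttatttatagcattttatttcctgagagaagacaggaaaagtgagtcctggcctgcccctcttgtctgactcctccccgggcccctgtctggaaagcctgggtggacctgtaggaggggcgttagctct
The Ccn1 window held 1 TEAD core, beginning 103 bases before the start, and TATAAA 25 bases before it, and these did not overlap. The Tnc window held TATAAA 126 bases before the start and no TEAD core, and the Thbs2 window held neither. GGAATG was present in 12.6% and TATAAA in 7.60% of 32817 such windows in the table. The AP-1 letters TGANTCA, on both strands and present in 6.75% of windows, were in none of the windows of the 5 genes, nor was the CArG box, present in 1.47%. Among the windows of these genes the TEAD core was found in that of Ccn1 alone, and TATAAA also in a second Postn window. A second Tnc window overlaps the one shown and holds the same TATAAA. A match of letters is a description and does not show that a factor binds there.

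The pathways around these proteins were described with lists of related genes. From each list the 2 called genes of lowest adjusted p, higher and lower, were named by rule, and any further gene, also in the families above, was named after its values were seen. Of 20 kept paralogues from the same families, 5 were higher and 2 lower, against 13.1% and 15.9% of named genes. Of named genes as bright as the members, 23.2% were higher and 26.0% lower. Not all of these paralogues were that bright. Their median difference was -0.31 as measured and 0 with signals below the floor set to it, a setting chosen after seeing the data, which put the median of all named genes at 0 as well. The higher ones were Tgfbi, Sparcl1, Smoc2, Ccn5 and Thbs3, and the lower ones Ccn4 and Fstl1, all given above, and 7 of the 21 listed were below the floor on every array.

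Of 17 receptors of matricellular proteins, 5 were lower and 1 higher, against 15.9% and 13.1% of named genes. Of named genes as bright as the members, 26.0% were lower and 23.2% higher. Not all receptors were that bright, and Itga4 and Cacna2d1, both lower, were dimmer on average than every member. The median difference of the 17, -0.41, was that of Cd36, which was below the floor on all 8 arrays. With such signals set to the floor it was -0.07. Itgb5, the integrin beta 5 subunit that pairs with alpha v to bind vitronectin, periostin and CCN proteins, fell by 1.75 log2 units. It measured 11.79, 11.92, 11.91 and 11.82 on SThdh111/111 samples 1 to 4, against 13.59, 13.64, 13.64 and 13.54 on SThdh7/7 samples 1 to 4 (adjusted p = 7.4e-11). Its partner Itgav fell by 0.75 log2 units (adjusted p = 1.1e-06), and Cd44, a receptor of hyaluronan and osteopontin, by 1.25 (adjusted p = 3.3e-07). Itga4, the alpha 4 subunit that binds fibronectin, was below the floor on every SThdh111/111 array and at least 3.26-fold lower there (adjusted p = 2.9e-04). Its intensities on SThdh111/111 samples 1, 3 and 4 (94.0, 115.6 and 98.2) exceeded the controls of those arrays (72.0, 77.5 and 75.8). Sample 2, at 27.2, did not. Cacna2d1, a calcium channel subunit that serves as a thrombospondin receptor, fell by 0.84 (adjusted p = 0.014) at its brightest probe set, while the mean of its 5 probe sets differed by 0.027. The endocytic receptor Lrp1 rose by 0.82 ± 0.13 (SE; adjusted p = 4.1e-04), a call lost when its probe sets were averaged. The fibronectin receptor subunits Itga5 and Itgb1 were not called, with differences of -0.29 and -0.07 (adjusted p = 0.16 and 0.50), nor was the thrombospondin receptor Cd47 (0.08, adjusted p = 0.36).

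Among 18 other targets of YAP and TAZ, 10 were lower and 4 higher, against 15.9% and 13.1% of named genes. Of named genes as bright as the members, 26.0% were lower and 23.2% higher. Not all targets were that bright, and Fjx1 and Foxf2, both lower, were dimmer on average than every member. The median difference of the 18 was -0.37. After centring of the arrays 4 were lower and 4 higher. Ankrd1, a muscle ankyrin repeat protein often read beside Ccn1 and Ccn2, fell by 2.30 log2 units. It measured 7.68, 8.06, 7.81 and 7.51 on SThdh111/111 samples 1 to 4, against 10.28, 10.09, 10.02 and 9.88 on SThdh7/7 samples 1 to 4 (adjusted p = 5.2e-08). Igfbp3, a binding protein of insulin-like growth factors, fell by 3.06 (adjusted p = 1.0e-09). Amotl2, an angiomotin that holds YAP at cell junctions, rose by 0.78 ± 0.07 (SE; adjusted p = 3.4e-06), and the exchange factor gene Arhgef17 rose by 1.31 ± 0.11 (SE; adjusted p = 7.9e-07), a call lost with the mean of its probe sets. Of 11 kept regulators, 1 was higher and 3 lower, against 13.1% and 15.9% of named genes. Of named genes as bright as the members, 23.2% were higher and 26.0% lower. Yap1 rose by 0.60 ± 0.08 (SE; adjusted p = 5.7e-05). Tead1 fell by 0.79 log2 units (adjusted p = 3.6e-04), the kinase gene Lats2 by 0.72 (adjusted p = 7.4e-04) and Wwtr1, which encodes TAZ, by 0.38 (adjusted p = 8.3e-04). The calls of Lats2 and Wwtr1 were lost after centring, and that of Lats2 also when its probe sets were averaged (-0.45, adjusted p = 0.064). Without probe sets that can match more than 1 transcript the Lats2 call was lost too (-0.27, adjusted p = 0.34).

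Of 10 kept genes of the TGF-beta pathway, which induces Ccn2, Fn1, Postn and Thbs1 in many cells, 4 were higher and 3 lower. Of named genes 13.1% were higher and 15.9% lower, and of those as bright as the members 23.2% and 26.0%. The co-receptor gene Tgfbr3 rose by 3.10 ± 0.09 (SE; adjusted p = 2.1e-11), and the signalling receptor gene Tgfbr2 by 0.90 ± 0.06 (SE; adjusted p = 1.1e-07), a call lost when its probe sets were averaged. The ligand genes differed in direction. Tgfb1 fell by 1.05 log2 units (adjusted p = 2.7e-06), while Tgfb2 rose by 1.13 ± 0.09 (SE; adjusted p = 3.8e-07), and Tgfb3 was not called (0.01, adjusted p = 0.97). Smad2 was lower by a difference of -0.32 (adjusted p = 0.010), a call lost under 5 alternatives. Among them were centring (-0.17), no intensity trend (adjusted p = 0.068) and averaged probe sets (-0.19). The others were leaving out probe sets that can match more than 1 transcript (-0.05, adjusted p = 0.94) and the fit without SThdh7/7 samples 1 and 2 (-0.25). After centring, and without those samples, 1 gene of the list was lower, Tgfb1.

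**Figure D4:**
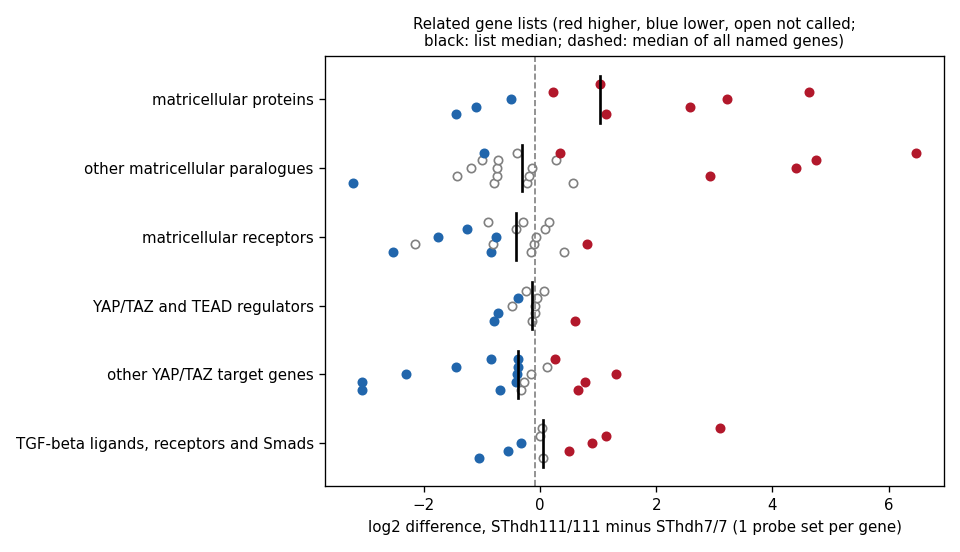
Difference in log2 intensity (x axis, SThdh111/111 minus SThdh7/7) of each kept gene in 6 lists, red where called higher, blue where called lower and open where not called, with signals below the floor plotted as measured. Black bars are list medians as measured, 1.03 for the matricellular genes, and the dashed line is the median of all named genes, -0.09.

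Markers of other cell types were measured beside these genes. The shares to set beside each count are 13.1% of named genes higher and 15.9% lower. Among those as bright as the members they are 23.2% and 26.0%, though some markers were dimmer than that. Of 7 fibroblast and mesenchyme markers, 5 were higher and 0 lower. Their summed intensity was 62713 to 75252 on the SThdh111/111 arrays and 8579.9 to 9947 on the SThdh7/7 arrays. Col1a1, Col1a2, Pdgfra, Dcn and Lum were the higher ones, Pdgfrb and Thy1 were not called, and Dcn and Lum were below the floor on every SThdh7/7 array. Of 5 smooth muscle and pericyte markers, Acta2 and Tagln were lower and 0 higher. Cnn1 and Myh11 were below the floor on all 8 arrays, and Rgs5 and the other 2 Acta2 probe sets were not called. The 5 had a summed intensity of 1189 to 1579 on the SThdh111/111 arrays and 4474 to 5513 on the SThdh7/7 arrays. The part of either list in the results above was not tested. A smaller share of cells of a type and less RNA per cell cannot be told apart in such samples. The macrophage markers Aif1, Itgam, Ptprc and C1qa were below the floor on all 8 arrays, as was the endothelial marker Pecam1. Of 6 macrophage markers 1 was higher (Csf1r) and 1 lower (Cd68), with sums of 1167 to 1331 in SThdh111/111 and 1972 to 2173 in SThdh7/7. Of 5 endothelial markers 1 was lower (Cldn5), with sums of 576 to 642 in SThdh111/111 and 543 to 1079 in SThdh7/7. Of 4 astrocyte markers 1 was lower (Aldh1l1), with sums of 586 to 817 in SThdh111/111 and 1691 to 2236 in SThdh7/7.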

How the data were processed

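Total RNA was extracted with Tri-reagent, purified on columns and labelled with biotin, per the labels' protocols. The deposited table gives 1 linear intensity per probe set and array, made by the authors. GCRMA is the only tool in the submitters' processing notes, with no version given. The deposited intensity values have another form: the trimmed mean of every array was 500.0, as MAS5 or GCOS signals have, so the tool is not settled. The number of arrays limits the precision.

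From these values log2 was taken. The 64 controls were left out, and probe sets with a log2 of at least 4 on at least 4 arrays were kept, 41409 of 45037. Names came from the platform annotation, updated by Entrez number (GRCm38.p6 table): 34945 probe sets had 1 gene, 932 several and 9160 none. A gene was read at its probe set with the highest mean. The lines were compared in limma 3.58.1 under R 4.3.3 (lmFit, then eBayes with its trend option). P-values are two-sided and were adjusted by Benjamini-Hochberg across the 41409 probe sets. Genes were called under 0.05. The fit was tested on simulated data with independent noise at each probe set and array. That test does not cover effects shared across an array or a culture. The floor was the 95th percentile of 27 Bacillus subtilis control probe sets on the array where it was highest, an intensity of 130.0. A line wholly below it gives a fold as "at least". Named were Htt, the members, and from each list the 2 called genes of lowest adjusted p, higher and lower. The members and lists were chosen with earlier results of these data known. Alternatives were filters, scalings, fit options, probe set choices, the sample number as a block and left-out samples.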

Additional observations from a re-analysis of the deposited data

Results flagged for a closer look

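Among 116 sets of 4 arrays of 1 line, from the 20 matricellular probe sets and the called genes of the related lists, 5 had a single array far from the other 3. Chance gives about 1 in 20 such sets. The second Ccn3 probe set was at 13.46 on SThdh111/111 sample 4, below the other 3 arrays of the line. The dimmest Sparc probe set was at 7.62 and Fstl1 at 12.09 on the same array, each the lowest of its line. On SThdh111/111 sample 2, Itga4 was lowest at 4.77, where all arrays of the line were below the floor, and Cacna2d1 was highest at 7.55.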

How the results depend on the processing

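The 9 gene differences were recomputed under 19 alternatives, which gave 170 values, because leaving out probe sets that can match several transcripts left Ccn3 without one. Of these, 163 kept direction and call, 7 kept direction but lost the call (4 of Sparc, 2 of Ccn1, 1 of Tnc), and 0 changed sign. The cause of the losses was not tested. Genes called higher numbered 5 or 6 and genes called lower 2 or 3. The count over the whole table moved beyond 1.5 times in 1 setting, 6132 against 9288, without the probe sets that can match several transcripts, where fewer were tested. With the mean over the probe sets of a gene this count has no counterpart. Centring moved the share of lower calls to 39.5% from 56.0%. Averaging the probe sets of a gene left 2 targets of YAP and TAZ, 2 TGF-beta genes and 0 receptors higher, and turned Cacna2d1 to 0.027. Htt passed the threshold with a filter at 8 (adjusted p = 0.046) and without the probe sets that can match several transcripts (-1.09, adjusted p = 0.024). The sample numbers did not pair the samples (correlations of same-numbered deviations -0.014 to 0.009, and 3 of 8 samples correlated best with their own number). With the replicate block 8828 probe sets were called, 6 matricellular genes were higher and 3 lower, and of the called genes of the related lists Thbs3 alone lost its call. For Tnc, Fn1, Sparc and Ccn1 the dimmest probe sets were not called, for which the cause was not tested.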

Other observations

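A further probe set is annotated to both Thbs1 and Pald1 and was left out of the counts above. It measured 13.85, 14.03, 14.10 and 14.04 on SThdh111/111 samples 1 to 4, against 12.83, 12.87, 13.37 and 13.47 on SThdh7/7 samples 1 to 4. The lines did not overlap, with a difference of 0.87 ± 0.13 (SE; adjusted p = 1.9e-04). SThdh7/7 samples 1 and 2 were the lowest here, as for Fn1.

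SThdh111/111 sample 3 was the lowest of its line at the brightest probe sets of Ccn1, Ccn2, Thbs1 and Thbs2, and the highest of its line at those of Ccn3 and Sparc.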
